A study of Arabidopsis thaliana with 4 samples.

Results

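The 10 nuclear genes of Arabidopsis thaliana described here encode chaperones and chaperonins of the chloroplast stroma and were chosen by their locus codes from the 31346 genes of the deposited table. All 10 loci are in the table, and all 10 passed the filter on low counts. They are HSP90C (AT2G04030), CPHSC70-1 (AT4G24280), CPHSC70-2 (AT5G49910), CGE1 (AT5G17710), CPN60A1 (AT2G28000), CPN60B1 (AT1G55490), CPN60B2 (AT3G13470), CPN60B3 (AT5G56500), CPN20 (AT5G20720) and CLPB3 (AT5G15450). Line #5 overexpresses CLPD in the wild-type background (ClpD-OE). The RNA of its whole seedlings, taken at an age of 6 d, was sequenced in 2 libraries, and that of the wild type (WT) of the same age in 2 more. CLPD encodes an Hsp100 chaperone of the plastid Clp protease. The series describes its overexpression as constitutive, its promoter is named in none of the sources at hand, and both libraries carry the name of the same line, so that overexpression and other traits of that line cannot be told apart. The series asks how gene expression responds when a chloroplast precursor protein accumulates; no protein was measured in these libraries. Nothing in the labels says that the replicates were separate cultures, so the p-values reflect a spread between libraries that may be technical only.

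Most chloroplast proteins are made in the cytosol as precursors with a transit peptide, are pulled through the envelope translocons in an unfolded state, and fold in the stroma. Stromal Hsp70, Hsp90 and Hsp100 proteins are associated with the import machinery and with refolding. The chaperonin, a double ring of Cpn60 alpha and beta subunits, encloses unfolded proteins under a lid of Cpn20 and Cpn10 cochaperonins and is known for folding the large subunit of Rubisco. ClpB-type disaggregases pull proteins out of aggregates, and the plastid form, ClpB3, is known for its role in heat tolerance and plastid development.

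Total counts were 23294451 and 22764333 in the ClpD-OE libraries and 20800842 and 21896988 in the WT libraries. The 10 genes took 0.413% and 0.380% of all counts in the ClpD-OE libraries, against 0.243% and 0.255% in the WT libraries. CLPD (AT5G51070) itself stood at 1669 and 1870 normalized CPM (read counts scaled by library size) in ClpD-OE, against 151 and 147 in WT, so the libraries carried the overexpression their labels give. Transcripts of green tissue and of roots were both present. RCA, which encodes Rubisco activase, was at 4203 and 4287 FPKM (fragments per kilobase of transcript and mapped-fragment total) in ClpD-OE and 6547 and 5777 in WT, and PYK10, a root beta-glucosidase gene, at 744 and 773 in ClpD-OE and 612 and 697 in WT. On the normalized scale PYK10 had a log2 fold change of -0.012 (edgeR adjusted p = 0.945), the root endodermis gene CASP1 one of 1.17 that did not pass (adjusted p = 0.165), and the green-tissue genes RCA and LHCB1.3 fell, at -0.77 and -0.64 (adjusted p = 0.0246 and 0.0193). The part of tissue makeup in the results below was not tested. In RNA of whole seedlings, fewer cells of a type and less RNA per cell cannot be told apart.

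In ClpD-OE, 9 of the 10 stromal chaperone genes stood above WT in both libraries and CLPB3 stood below it. HSP90C, CPN60A1 and CPN60B1 rose, by 1.78-fold, 1.55-fold and 1.46-fold, and 0 members were called lower (edgeR quasi-likelihood test, Benjamini-Hochberg adjusted p under 0.05 over all 18940 genes tested). Over all genes tested, 8.19% were called, 4.29% higher and 3.91% lower. Groups that did not overlap in normalized CPM were common in this comparison, at 30.5% of genes in the higher and 29.4% in the lower direction. The median log2 fold change was 0.37 over the 10 genes and 0.0011 over all genes tested. With DESeq2, CLPB3 was called lower as well (adjusted p = 0.00271), while the same number of members, 3, was called higher, at backgrounds of 6.43% lower and 5.39% higher. In the authors' deposited table, 3 members pass as higher and 1 as lower at an FDR under 0.05, where 2.96% and 3.60% of the listed genes do. The submitters' processing notes name DESeq2 among the tools, so these calls may not be separate from the DESeq2 calls.

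The count of calls depended on the scaling and on single libraries, and the directions of the 10 genes did not. Without TMM, on library totals, the median of all genes moved up by 0.22 on the log2 scale, and 8 members were called higher and 0 lower, at backgrounds of 14.3% and 3.05%. Limma on the authors' FPKM, in which the scaling is the authors' own, also called 8 members higher and 0 lower, at backgrounds of 13.8% and 2.86% with a pseudocount of 1 and of 13.5% and 2.88% with a pseudocount of 0.1. The same 3 members were called higher and 0 lower in edgeR with DESeq2 size factors (background 4.13% higher and 3.89% lower), with no filter (3.17% and 2.89%), with a minimum of 1 CPM in 2 libraries (4.55% and 4.11%) and with the newer quasi-likelihood fit (4.39% and 3.98%). Without WT replicate 1, 1 member was called higher and 0 lower (backgrounds 1.06% and 1.64%), without WT replicate 2, 4 were called higher (6.07%) and 1 lower (8.25%), and without either ClpD-OE replicate, 0 of the members and 0 of all genes were called by edgeR (0.00% in either direction), a fit in which the lone library of a group is assumed to vary like those of the other. Under each of the 13 alternatives tried, the same 9 genes had a positive and CLPB3 a negative log2 fold change.

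**Figure D1:**
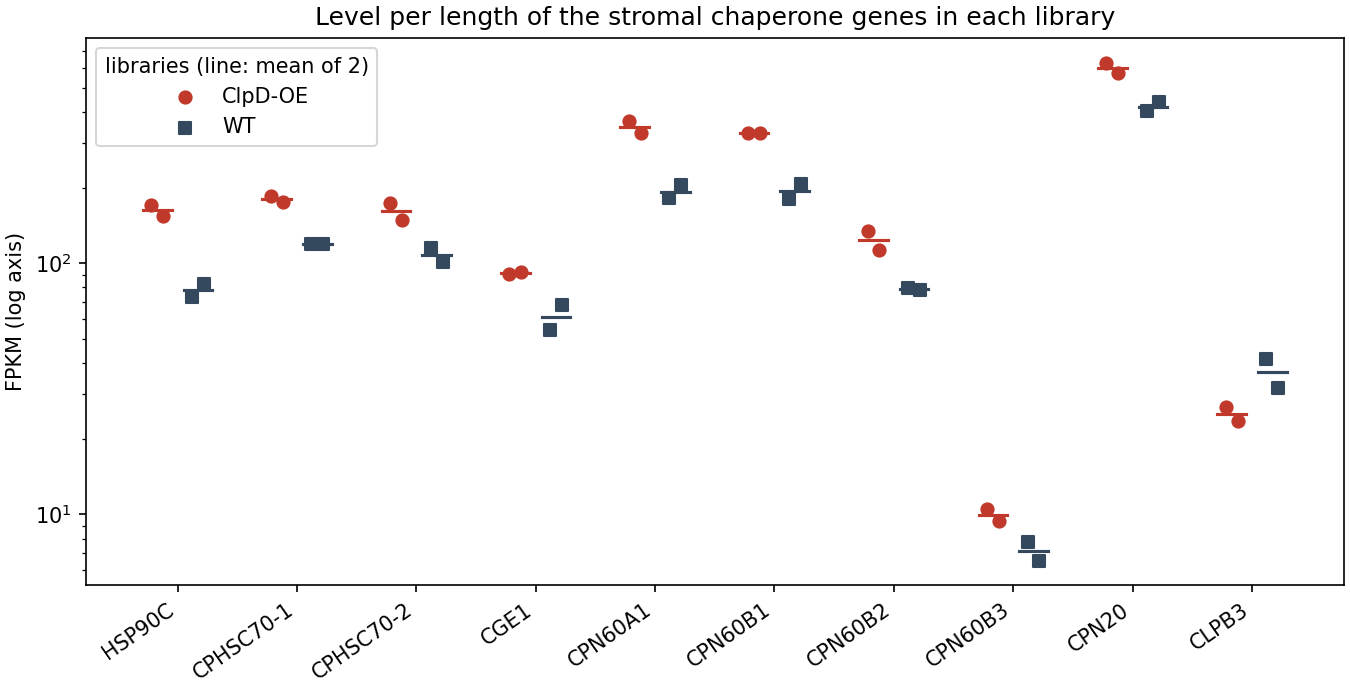
Level of the 10 genes in each library in FPKM, which are not TMM-scaled, on a log axis. ClpD-OE libraries are circles, WT libraries are squares, and lines mark the means of 2. CPN20 was the most abundant per length and CPN60B3 the least in both groups, and CLPB3 is the gene whose ClpD-OE libraries lie below its WT libraries.

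Per length of transcript, the cochaperonin gene CPN20 had the highest level, with a mean of 601 ± 40.0 FPKM in ClpD-OE and 420.1 ± 24.7 in WT (SD, n = 2 each). CPN60A1 and CPN60B1 came next, at 348 ± 27.4 and 329 ± 0.0233 FPKM in ClpD-OE, and at 193 ± 15.7 and 194 ± 19.1 in WT. Their libraries overlapped within each group, so these subunits could not be ranked against each other. CPHSC70-1 followed in both groups, at 179.7 ± 6.53 FPKM in ClpD-OE and 119 ± 0.185 in WT. In ClpD-OE, HSP90C at 162 ± 11.7 FPKM overlapped CPHSC70-2 at 161 ± 17.3, whereas in WT HSP90C at 78.1 ± 6.54 FPKM overlapped CPN60B2 at 78.9 ± 1.00 and lay below CPHSC70-2 at 108 ± 9.20. CGE1, CLPB3 and CPN60B3 closed the order in both groups without overlap between neighbours. The lowest of them, CPN60B3, had 9.94 ± 0.827 FPKM in ClpD-OE and 7.14 ± 0.851 in WT. The order was read within each group. Between the groups FPKM are not TMM-scaled, and with limma on log2(FPKM + 0.1) the median log2 fold change of all genes was 0.22.

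The upstream sequences of the genes that were called, and of CLPB3, which moved the other way, are shown because the series frames its question around a response resembling heat shock, in which heat shock factors bind inverted repeats of the pentamer NGAAN. They were read from the RefSeq assembly TAIR10.1 and end at the base before the annotated gene start, and that of CPN60B1 begins where the neighbouring gene ends, at 211 bases. The submitters' processing notes name TAIR10, and no coordinate of the deposited table was used. Capitals mark the matches to the heat shock element (GAANNTTC or TTCNNGAA), the G-box (CACGTG) and the site II core (GGCCCA, or TGGGCC on the other strand).
HSP90C, chr2:1281504-1281753, plus strand: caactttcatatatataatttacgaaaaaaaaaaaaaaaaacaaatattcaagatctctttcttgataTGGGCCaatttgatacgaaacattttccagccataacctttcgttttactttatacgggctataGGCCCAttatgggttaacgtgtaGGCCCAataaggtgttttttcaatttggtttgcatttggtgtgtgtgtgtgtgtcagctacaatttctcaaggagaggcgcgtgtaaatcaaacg
CPN60A1, chr2:11926196-11926445, plus strand: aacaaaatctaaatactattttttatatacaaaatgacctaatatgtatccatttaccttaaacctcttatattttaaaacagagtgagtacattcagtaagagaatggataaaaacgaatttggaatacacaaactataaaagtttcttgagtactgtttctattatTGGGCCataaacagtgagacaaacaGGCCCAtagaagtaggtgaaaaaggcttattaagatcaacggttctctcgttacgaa
CPN60B1, chr1:20719262-20719472, minus strand: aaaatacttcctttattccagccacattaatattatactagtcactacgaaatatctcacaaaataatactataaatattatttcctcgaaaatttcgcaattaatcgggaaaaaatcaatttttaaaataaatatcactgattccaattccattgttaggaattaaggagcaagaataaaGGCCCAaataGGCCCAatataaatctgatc
CLPB3, chr5:5018348-5018597, minus strand: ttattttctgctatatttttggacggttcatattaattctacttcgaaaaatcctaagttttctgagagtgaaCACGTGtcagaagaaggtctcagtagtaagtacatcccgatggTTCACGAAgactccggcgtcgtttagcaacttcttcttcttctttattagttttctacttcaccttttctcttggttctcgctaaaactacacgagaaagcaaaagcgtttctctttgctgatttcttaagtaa

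All 250 bases upstream of each gene start were searched on both strands, also where they lie inside a neighbouring gene. They do so at least in part for CPHSC70-1, and in part for CPN60B1 and CPN60B3. The heat shock element with 2 pentamer units was found at 3 of the 10 genes, CLPB3, CPN60B2 and CPN20. It was found at 15.7% of the 18805 tested protein-coding genes. In CLPB3 the match begins 134 bases before the gene start, in CPN20 37 bases and in CPN60B2 18 bases before it. The form with 3 units (GAANNTTCNNGAA or TTCNNGAANNTTC), which contains the other, was found at 0 of the 10 genes and at 0.409% of all. The G-box was found at CLPB3 and CPN60B3, that is at 2 of 10, and at 7.43% of all. The site II core, an element of many genes for ribosomal and organelle proteins, was added to the search after these sequences had been read. It was found at 5 of 10 genes, with 3 matches at HSP90C, 2 each at CPN60A1, CPN60B1 and CPN60B2 and 1 at CPHSC70-2, and at 17% of all tested protein-coding genes and 23.5% of those called higher. Among the related lists described below, it was at 6 of 9 genes of the cytosolic chaperonin, of which 0 were called, at 3 of 10 mitochondrial counterparts, at 2 of 9 cytosolic counterparts, at 2 of 17 stromal partners, of which 6 were called higher, and at 0 of 7 Rubisco assembly genes. It was not found in the 250 bases upstream of CLPB3. A match is a run of letters and not evidence of binding.

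**Figure D2:**
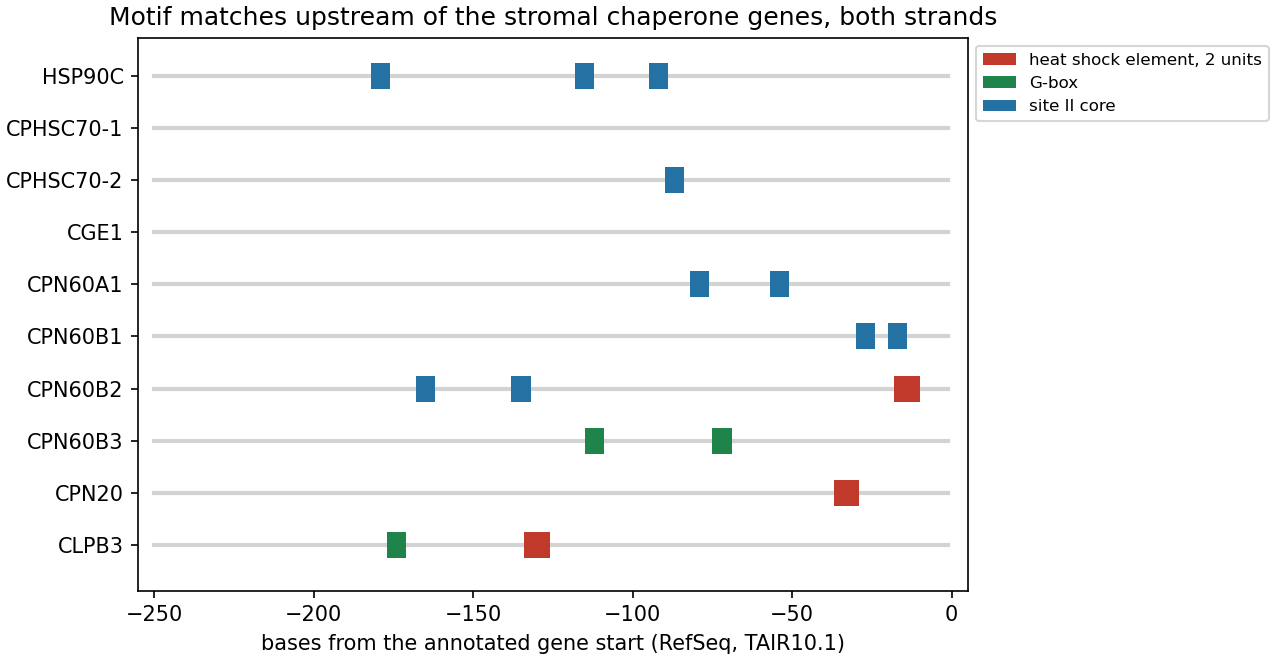
Matches to the 2-unit heat shock element, the G-box and the site II core in the 250 bases upstream of each gene, neighbouring genes included, plotted by distance in bases from the annotated gene start. The site II core is at 5 of the 10 genes, among them HSP90C, CPN60A1 and CPN60B1, and the heat shock element at CPN60B2, CPN20 and CLPB3.

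HSP90C encodes the plastid Hsp90, a chaperone needed for plastid development and associated with the import translocon. It had 446 and 398 normalized CPM in the ClpD-OE libraries, against 228 and 247 in the WT libraries. The lower ClpD-OE library was 1.61 times the higher WT library. The log2 fold change was 0.83 (SE 0.0964, edgeR adjusted p = 0.0218), above 94.1% of all genes tested. It was the only member still called without WT replicate 1 (adjusted p = 0.0432), and its log2 fold change lay between 0.75 and 0.91 when any 1 library was left out. Its annotated span overlaps no other gene.

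The plastid Hsp70 genes, whose products act in the stroma on arriving and misfolded proteins, were higher in both ClpD-OE libraries but did not pass the test. CPHSC70-1 had 483 and 452 normalized CPM in ClpD-OE and 369 and 354 in WT, a log2 fold change of 0.37 (SE 0.0801, edgeR adjusted p = 0.0551). CPHSC70-2 had 399 and 339 normalized CPM in ClpD-OE and 312 and 266 in WT, a log2 fold change of 0.35 (SE 0.126, edgeR adjusted p = 0.147), and one of 0.23 without ClpD-OE replicate 1. For CPHSC70-2 the gap between the groups was small, the lower ClpD-OE library being 1.08 times the higher WT library, and replicate 2 was below replicate 1 in both groups. The coding sequences of these genes were 85.2% identical over aligned bases and shared 0 windows of 50 bases. CGE1, a GrpE-type nucleotide exchange factor gene of plastid Hsp70, had 120.5 and 121 normalized CPM in ClpD-OE and 85.2 and 102 in WT. The ClpD-OE libraries were nearly equal and the WT libraries were not. Its log2 fold change was 0.36 (SE 0.111, edgeR adjusted p = 0.110), and 0.24 without WT replicate 1.

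Among the subunits of the chaperonin ring, CPN60A1, the main alpha subunit, had 763 and 673 normalized CPM in ClpD-OE and 447 and 482 in WT. Every ClpD-OE library exceeded every WT library, and the lowest ClpD-OE library was 1.40 times the highest WT library. Its log2 fold change was 0.63 (SE 0.0970, edgeR adjusted p = 0.0302). CPN60B1, the most abundant beta subunit gene, had 664 and 655 normalized CPM in ClpD-OE and 430.4 and 476 in WT. The ClpD-OE libraries lay close together and well above WT, with a log2 fold change of 0.54 (SE 0.0848, edgeR adjusted p = 0.0311). Both calls were lost without WT replicate 1, at adjusted p = 0.0682 for CPN60A1 and 0.0533 for CPN60B1.

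The other beta subunit genes did not pass. CPN60B2 had 295 and 245 normalized CPM in ClpD-OE and 207 and 195 in WT, a log2 fold change of 0.43 (SE 0.114, edgeR adjusted p = 0.0836). CPN60B3 had 24.1 and 21.2 normalized CPM in ClpD-OE and 21.0 and 17.1 in WT, and its groups nearly touched, at a ratio of 1.01 between the lowest ClpD-OE and the highest WT library. Its log2 fold change was 0.25 (SE 0.146, edgeR adjusted p = 0.327), and 0 of the 13 alternatives called it. The log2 fold change was 0.11 without WT replicate 2 and 0.41 without WT replicate 1. CPN60B1 and CPN60B2 were 88.0% identical over aligned coding bases, the highest identity of the pairs compared, and 0.570% of the 50-base windows of CPN60B1 also occurred in CPN60B2. CPN60B3 was 78.3% identical to each of them and shared 0 such windows. Reads of CPN60B1 and CPN60B2 that fall in shared stretches may be divided between them by the authors' counting.

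CPN20 encodes the cochaperonin whose chain joins a pair of GroES-like domains. It had 577 and 518 normalized CPM in ClpD-OE and 437 and 457 in WT, a log2 fold change of 0.29 (SE 0.0885, edgeR adjusted p = 0.108). CLPB3, the disaggregase gene, had 79.2 and 69.3 normalized CPM in ClpD-OE and 147 and 108 in WT. Both ClpD-OE libraries lay below both WT libraries, and the WT libraries differed from each other by more than the ClpD-OE libraries did. The log2 fold change was -0.78 (SE 0.168, edgeR adjusted p = 0.0547), below that of all but 6.33% of the genes tested. It was -0.54 without WT replicate 1 (adjusted p = 0.0943) and -0.98 without WT replicate 2 (adjusted p = 0.0134), so its size depended on which WT library was kept, replicate 1 being the one with the higher CLPB3 level. The authors' deposited table gives CLPB3 a log2 fold change of -0.55 at an FDR of 0.00273. On library totals, without TMM, edgeR also gave -0.55 (adjusted p = 0.0607), and for HSP90C both gave 1.05. The deposited log2 fold change is thus not on the TMM scale of the other CLPB3 values given here. The deposited FDR is close to the DESeq2 adjusted p of 0.00271, which goes with a log2 fold change of -0.78. It may therefore not belong to the unscaled value beside it. WT replicate 1 was also the library with the higher level of HSP101, the cytosolic relative of CLPB3, at 55.1 against 9.93 normalized CPM in WT replicate 2, with 12.8 and 8.80 in ClpD-OE. The part of that library in the CLPB3 value was tested only by leaving it out.

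**Figure D3:**
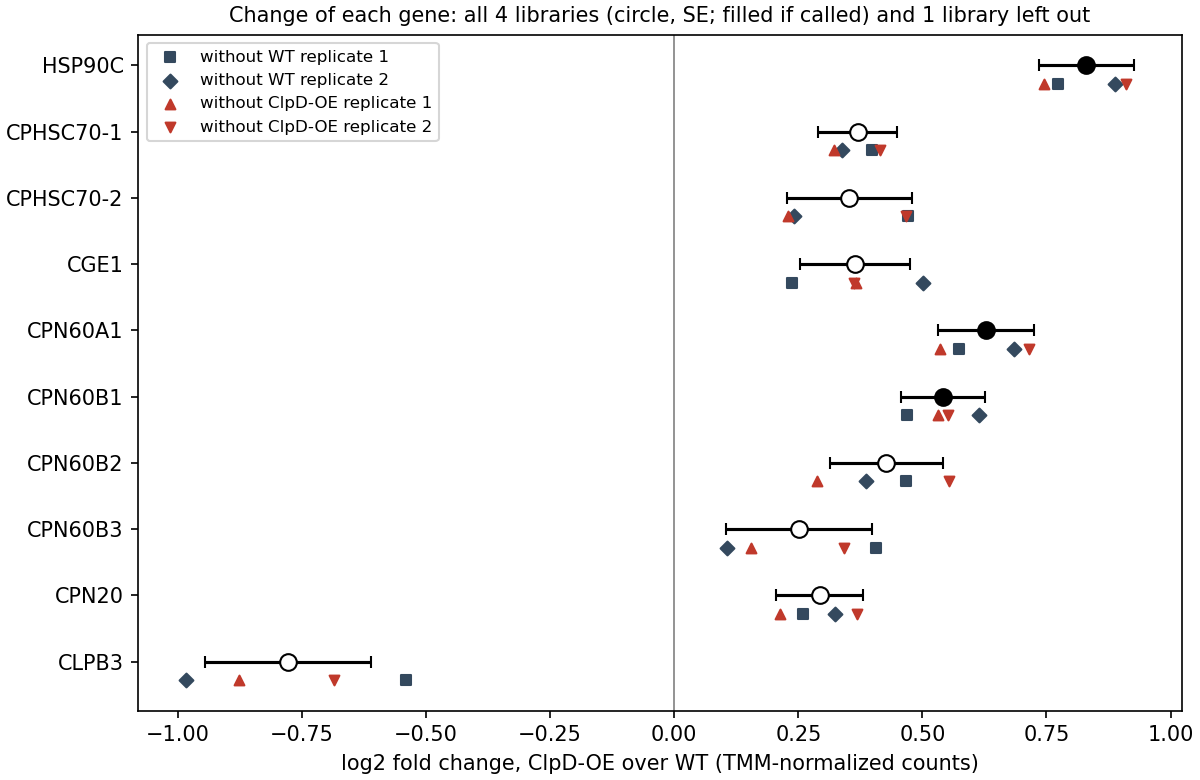
Log2 fold change of each gene, ClpD-OE over WT, with its SE (circles, filled where called) and the values with 1 library left out (small symbols). The 9 genes from HSP90C to CPN20 lie right of 0 and CLPB3 lies left of 0 in every fit drawn.

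The ClpD-OE libraries differed from each other in a shared direction over most of the 10 genes, and the WT libraries did not. In ClpD-OE, replicate 2 was below replicate 1 for 9 of the 10 genes, with log2 differences between -0.27 and 0.0040. In WT, replicate 2 was below for 5 of 10, with differences between -0.44 and 0.27. The median log2 difference in ClpD-OE was -0.17 over the 10 genes and 0.0011 over all genes tested. It was -0.14 over the mitochondrial counterparts and 0.067 over the stromal partners, both described below. Of the 10 genes, 6 overlap an annotated gene, each time on the opposite strand, and no source at hand says whether reads were counted by strand. The overlaps ran from 49 bases at CPN60B1 to 553 bases at CPN60B2. The gene that overlaps CPN60B1, AT1G55480, had a mean of 113 FPKM in ClpD-OE and 170.5 in WT, lower where CPN60B1 was higher. HSP90C, CPN60A1, CPN60B3 and CGE1 overlap no annotated gene.

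The proportions among the transcripts were set from FPKM within each library, where scaling between libraries cancels. HSP90C stood at 0.477 and 0.475 of the summed plastid Hsp70 level in ClpD-OE, against 0.315 and 0.376 in WT. CPN20 stood at 0.747 and 0.733 of the summed Cpn60 level in ClpD-OE, against 0.895 and 0.882 in WT. The summed Cpn60 level itself, in which scaling does not cancel, was 812 ± 43.3 FPKM in ClpD-OE and 473 ± 32.9 in WT (SD, n = 2 each). For that sum, ClpD-OE stood at 1.72 times WT in FPKM and at 1.47 times WT in normalized CPM. CLPB3 stood at 0.156 and 0.153 of HSP90C in ClpD-OE, against 0.567 and 0.385 in WT. In these ratios the libraries of the groups did not overlap. CPN60A1 made up 43.7% and 42.1% of the Cpn60 level in ClpD-OE and 40.4% and 41.1% in WT. An exact permutation test, two-sided, gave p = 0.333 for each of these 4 quantities, which is the smallest p that 2 against 2 libraries allow.

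The proportions of CGE1, CPHSC70-1 and CPN60B2 overlapped between the groups. CGE1 stood at 0.254 and 0.286 of the summed plastid Hsp70 level in ClpD-OE, and at 0.233 and 0.308 in WT. CPHSC70-1 made up 51.5% and 54.0% of that level in ClpD-OE and 51.0% and 54.0% in WT. CPN60B2 made up 28.4% and 25.1% of the beta subunit level in ClpD-OE and 29.7% and 26.7% in WT (exact permutation p = 0.667). CPN60B3 made up 2.22% and 2.07% of the beta level in ClpD-OE and 2.89% and 2.24% in WT. These groups did not overlap (exact permutation p = 0.333), but they lay apart by less than the difference between the WT libraries. The summed level of all 10 genes was 2033 ± 120 FPKM in ClpD-OE and 1296 ± 57.4 in WT (SD, n = 2 each, exact permutation p = 0.333), a ratio of 1.57, and the ratio was 1.36 in normalized CPM.

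**Figure D4:**
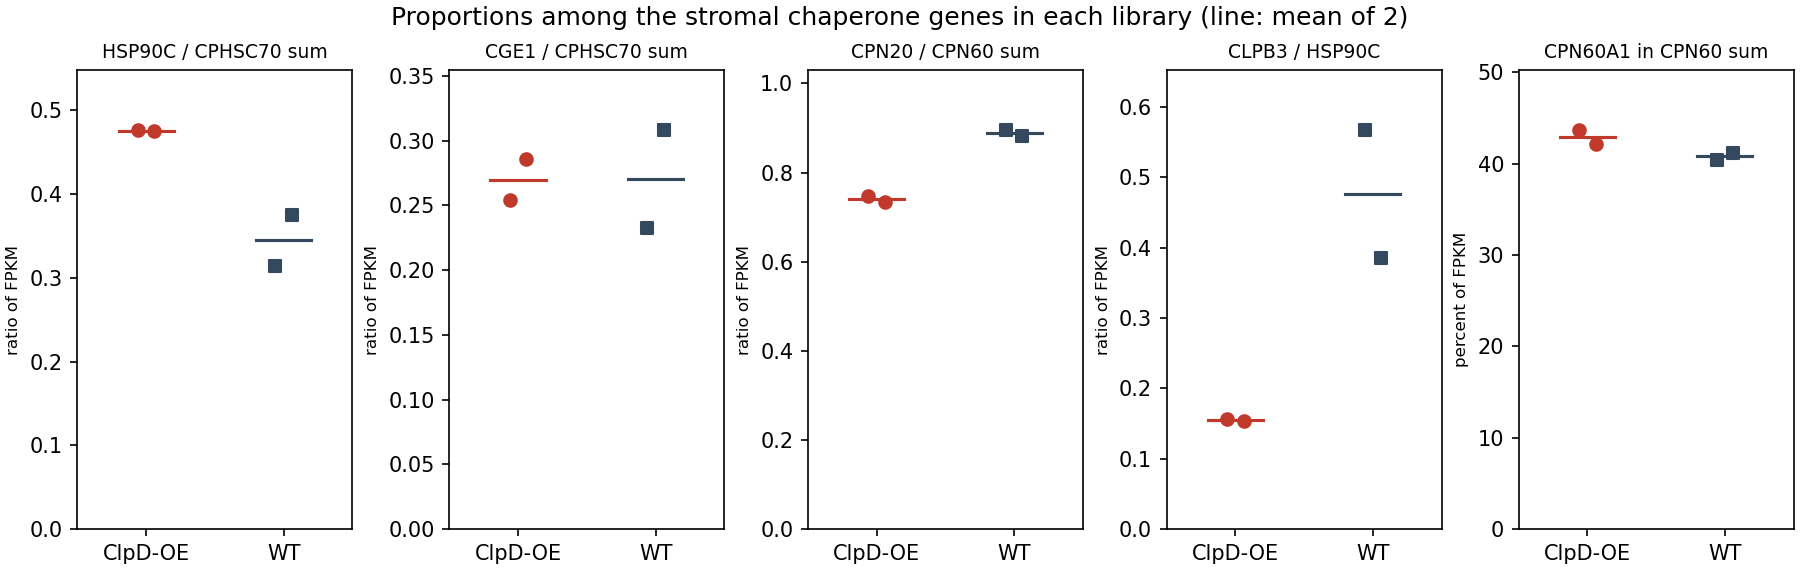
Ratios and shares of FPKM among the genes in each library, with ClpD-OE left of WT, all axes from 0 and lines at the means of 2. HSP90C relative to plastid Hsp70 was higher in both ClpD-OE libraries, CPN20 relative to Cpn60 and CLPB3 relative to HSP90C were lower, and CGE1 relative to plastid Hsp70 overlapped.

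The 17 partner genes are further Cpn60 and Cpn10 genes, J-domain proteins, a second GrpE factor, trigger factor and proteins of the import motor. Of these partners of the stromal chaperones, 6 were called higher and 1 lower, where 4.29% and 3.91% of all genes tested were. The median log2 fold change of the partners was 0.32. CPN60A2 (AT5G18820), a further alpha subunit gene, had 16.0 and 16.4 normalized CPM in ClpD-OE and 5.62 and 6.44 in WT, 2.68-fold higher (edgeR adjusted p = 0.0188). CPN60B4 (AT1G26230), a beta subunit known for folding a subunit of the chloroplast NDH complex, rose 1.60-fold, with 33.4 and 35.9 normalized CPM in ClpD-OE and 22.2 and 21.1 in WT (edgeR adjusted p = 0.0277). Both are low in level beside CPN60A1 and CPN60B1, at 7.35 and 7.60 FPKM for CPN60A2 and 18.9 and 20.2 for CPN60B4 in ClpD-OE. DJA4 (AT3G17830), a J-domain partner of Hsp70, was 2.33-fold higher, and TIC110 (AT1G06950), an inner envelope translocon protein gene, 1.75-fold higher. TIG, the trigger factor gene, and TIC40 were called at 1.42-fold and 1.45-fold. The single gene called lower was J20 (AT4G13830), a J-domain protein gene, at 43.1 and 52.1 normalized CPM in ClpD-OE and 79.1 and 77.4 in WT. TIG, TIC40 and J20 were named after their values had been seen. Without WT replicate 1, 3 of the 17 were called higher and 0 lower.

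Of 7 genes of Rubisco assembly and activation, 2 were called higher and 2 lower, where 4.29% and 3.91% of all genes tested were. The median log2 fold change of the 7 was 0.11. The assembly factor gene RBCX1 (AT4G04330) rose 2.21-fold. It had 58.1 and 61.8 normalized CPM in ClpD-OE and 21.4 and 32.9 in WT. RBCX2 (AT5G19855) fell, with 56.0 and 55.4 normalized CPM in ClpD-OE and 91.0 and 84.5 in WT, so the RBCX paralogs moved in opposite directions. RCA, whose product reactivates Rubisco, fell by 0.77 on the log2 scale (edgeR adjusted p = 0.0246), to the levels given above.

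The same protein families act in mitochondria and in the cytosol. Of 10 mitochondrial counterparts, 8 were called higher and 0 lower, where 4.29% and 3.91% of all genes tested were. In edgeR, 6 were called higher with DESeq2 size factors (background 4.13%) and 6 with no filter (3.17%). DESeq2 called 9 higher (5.39%). The median log2 fold change was 0.57, set beside 0.37 for the 10 stromal genes. In the Cpn60 family HSP60-2 rose 2.08-fold, with 72.6 and 74.3 normalized CPM in ClpD-OE and 33.7 and 37.1 in WT. HSP60-3A rose 1.49-fold (edgeR adjusted p = 0.0452) and HSP60 had 1.38-fold without passing (edgeR adjusted p = 0.0631). These stand beside 1.55-fold for CPN60A1 and 1.46-fold for CPN60B1. CPN60B2 and CPN60B3 had 1.34-fold and 1.19-fold without passing. MTHSC70-1 rose 1.80-fold and MTHSC70-2 1.49-fold (edgeR adjusted p = 0.0490 for MTHSC70-2), where the plastid Hsp70 genes had 1.29-fold and 1.28-fold and did not pass. The mitochondrial GrpE factor genes AR192 (AT4G26780) and MGE1 (AT5G55200) rose 2.07-fold and 2.06-fold, where CGE1 had 1.29-fold. CPN10 rose 1.47-fold, where CPN20 had 1.22-fold. The plastid Cpn10 genes AT3G60210 and AT2G44650, from the stromal partners, had 1.13-fold and 1.07-fold and did not pass. HSP90.6 rose 1.39-fold (edgeR adjusted p = 0.0482), where HSP90C had 1.78-fold. In edgeR, HSP90.6 did not pass with DESeq2 size factors (adjusted p = 0.0513) or with no filter (adjusted p = 0.0525). CLPB4, the mitochondrial relative of CLPB3, had 12.4 and 13.3 normalized CPM in ClpD-OE and 13.6 and 8.67 in WT, with groups that overlapped and no call (log2 fold change 0.21, SE 0.230, edgeR adjusted p = 0.603). HSP60, HSP60-3A, MTHSC70-2, CPN10, HSP90.6, CLPB4 and the plastid Cpn10 genes were named after their values had been seen. All these values come from the same 4 libraries, and the differences between compartments were not tested. Without WT replicate 1, 3 of the 10 mitochondrial genes were called, and without WT replicate 2, 5.

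Of 9 genes of the cytosolic chaperonin CCT, which folds actin and tubulin, edgeR called 0 and DESeq2 called 0, and edgeR's unadjusted p was under 0.05 for 4. All 9 had a positive log2 fold change, with a range between 0.13 and 0.31 and a median of 0.20. Of all 18940 genes tested, 5348 had an unadjusted edgeR p under 0.05 and 9495 a positive log2 fold change. CCT5 had 133 and 129 normalized CPM in ClpD-OE and 102 and 108 in WT, and CCT2 had 106 and 105 in ClpD-OE and 89.2 and 87.6 in WT (edgeR adjusted p = 0.0763 and 0.105). Of 9 cytosolic Hsp100, Hsp70 and Hsp90 genes, edgeR called 0 and DESeq2 called 0, and for HSP90.4 alone edgeR's unadjusted p was under 0.05. Here WT replicate 2 stood below WT replicate 1 at a median difference of -0.89 on the log2 scale, as HSP101 above did, whereas over the 10 stromal genes the median of replicate 2 minus replicate 1 was 0.0016. On library totals, 6 of the CCT genes and 2 of the cytosolic chaperone genes were called higher. In that fit 14.3% of all genes tested were called higher, and the median of all genes had moved up by 0.22 on the log2 scale.

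**Figure D5:**
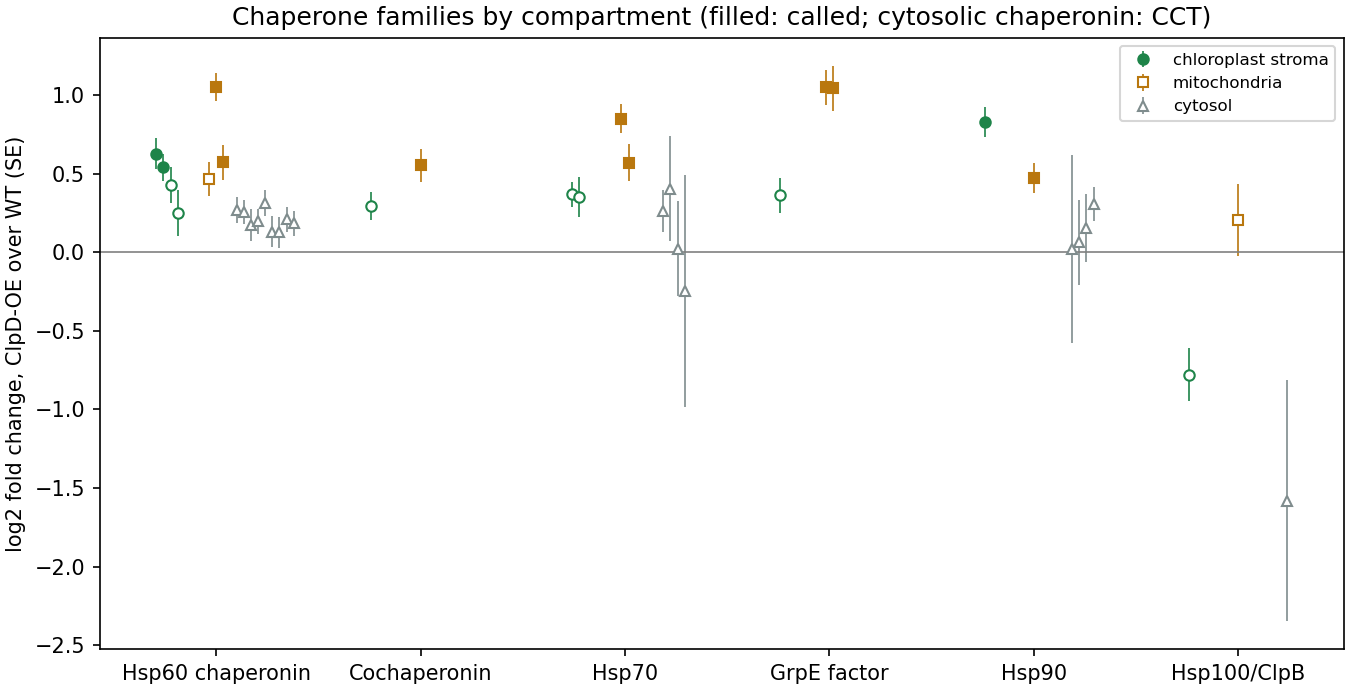
Log2 fold change, ClpD-OE over WT, with SE for each chaperone family in the chloroplast stroma, the mitochondria and the cytosol (filled symbols: called). The mitochondrial cochaperonin, Hsp70 and GrpE genes lie above the stromal ones drawn, and the Cpn60 genes of both organelles overlap in range. HSP90C lies above HSP90.6, and CLPB3, HSP101 and HSP70-4 lie below 0.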

How the data were processed

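The deposited data are 1 table with estimated counts, FPKM, group mean FPKM, a log2 fold change, a p-value and its FDR per gene, all made by the authors. Per the file headers the counts are not normalized. They are whole numbers, were treated as estimated counts because RSEM appears in the submitters' processing notes, and rounding changed 0 of them. Those notes also name fastp 0.18.0, HISAT2, Bowtie2 2.2.8, StringTie 1.3.1, DESeq2 and TAIR10, with no role. No source at hand names the tool behind the deposited p-value.

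The test was edgeR 4.0.16 under R 4.3.3 (TMM, filterByExpr by group, estimateDisp, glmQLFit and glmQLFTest at their defaults, genotype as the only term), over all 18940 genes that passed the filter. The SE is the size of the log2 fold change over the square root of F. Normalized CPM use TMM-scaled library sizes. Levels of different genes were compared in the authors' FPKM. Alternatives included DESeq2 1.42.0 and limma 3.58.1. The replicates differed by more than sampling noise (chi-square per degree of freedom 19.4 between WT and 10.6 between ClpD-OE libraries). In a test on simulated data, the fit missed most of the smallest changes simulated, which were larger than those of most members. Its share of false calls there exceeded the threshold. A gene that did not pass may therefore still differ. The 10 members, the lists and the naming rule (all members, then called genes of each list, up to 4, or the 2 with the smallest p) were chosen with earlier results of these data known. Upstream and coding sequences were taken from RefSeq TAIR10.1 by locus code, and identity was computed with Biopython 1.88. The values of 1 gene that the naming rule chose are not reported here.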

Additional observations from a re-analysis of the deposited data

How the results depend on the processing

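The count of genes called was 1552 with all libraries. It was 3276 on library totals, 2852 and 2804 with limma on log2(FPKM + 1) and log2(FPKM + 0.1), and between 0 and 2781 with 1 library left out. Members called higher numbered 3, and 8 on library totals and in both limma fits on FPKM, and between 0 and 4 with 1 library left out. Members called lower numbered 0, with 1 by DESeq2 and between 0 and 1 with 1 library left out. On library totals 82.4% of calls were higher, against 52.3% with TMM. The share of all genes called higher was 14.3% on library totals and 13.8% and 13.5% in the limma fits, against 4.29% with TMM. With the replicate number as a block, 3513 of the 18940 genes tested were called, 1628 higher and 1885 lower, against 812 and 740 without the block. In that blocked fit 7 members were called higher (HSP90C, CPN60A1, CPN60B1, CPHSC70-1, CPHSC70-2, CPN60B2 and CGE1) and 1 lower (CLPB3). The correlation of same-numbered libraries' deviations across genes was 0.29, and the labels do not say whether a number marks a shared batch, so the pairing is not part of the design and the fit without the block was kept. The summed level of the members differed by 737 FPKM between ClpD-OE and WT and by 977 in normalized CPM. With 1 library left out, the log2 fold change of HSP101 lay between -2.35 and 0.12 and that of CLPB4 between -0.085 and 0.57. The cause was not tested. With 2 libraries per group, the SE of a member's log2 fold change lay between 0.0801 and 0.168.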
